A study of Homo sapiens with 12 samples.

Results

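Autophagy initiation is described here through 10 genes, ULK1, ULK2, ATG13, RB1CC1, ATG101, BECN1, PIK3C3, PIK3R4, ATG14 and UVRAG, taken by symbol from a table of read counts for 19447 gene symbols. All 10 were found, 9 had enough reads to be tested in every comparison, and the tenth, ULK2, is given by its counts alone. mRNA was sequenced in 12 libraries, 3 from each of 4 groups. K562 is a chronic myeloid leukemia (CML) cell line that carries the BCR-ABL fusion kinase and was grown without drug. K562+L is the same line given lycorine, an isoquinoline alkaloid from Amaryllidaceae plants, at 6 µM. K562/IM is a line derived from K562 by stepwise exposure to imatinib (IM), the inhibitor of the BCR-ABL kinase, and kept in that drug. The libraries labelled K562/IM+L are given as K562/IM with lycorine at 6 µM. All 4 groups share the K562 background and its fusion. Exposure time before sequencing, and whether K562/IM is 1 clone, are not given in the sources used here, so that the drug history and any selection of cells cannot be told apart in K562/IM. The labels do not say that the 3 libraries of a group came from separate cultures, and the p-values therefore measure the spread between these libraries, which may be technical.

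Macroautophagy begins with a pair of protein complexes. The ULK complex joins a serine/threonine kinase, ULK1 or ULK2, to the regulatory subunit ATG13, the large scaffold RB1CC1 (FIP200) and the HORMA-domain protein ATG101, and responds to mTORC1 and AMPK. It activates a class III phosphatidylinositol 3-kinase complex of the lipid kinase PIK3C3 (VPS34), its pseudokinase partner PIK3R4 (VPS15) and BECN1 (Beclin 1), which carries either ATG14 at sites of autophagosome formation or UVRAG on endosomes. The lipid that PIK3C3 makes recruits WIPI proteins to the growing membrane.

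Total counts ran from 75093844 to 107344598 per library. CPM below are counts scaled to library size after normalization by the trimmed mean of M-values (TMM) over the 12 libraries. All 8 erythroid and K562 identity genes examined were detected in each group. Their summed level was 2955 to 4149 CPM in K562, 2389 to 2683 in K562+L, 1345 to 1477 in K562/IM and, with the globins HBG1 and HBZ as most of it, 16853 to 24559 in labelled K562/IM+L. The 5 lymphoid markers summed to 2.13 to 3.497, 0.542 to 1.36, 23.8 to 25.6 and 0.832 to 1.20 CPM in the same order, with CD3D at 22.0 ± 0.869 CPM (SD, n = 3) in K562/IM and the B cell gene MS4A1 at 0 throughout. The 5 stromal and epithelial markers, mostly EPCAM, summed to 124 to 133, 106.9 to 119, 66.7 to 72.5 and 85.3 to 106 CPM. EPCAM was lowest in K562/IM, at a mean of 46.2 CPM. COL1A2, COL1A1 and DCN were instead highest there, at means of 17.1, 4.28 and 1.13 CPM. In the other groups their means were at most 0.0294, 0.569 and 0.524 CPM. ABCB1, the drug efflux pump P-gp, averaged 1.75, 4.27, 23.5 and 0.753 CPM. Because the group code that the labels give to K562/IM+L differs from the code in the study's plots, the group is called "labelled K562/IM+L" below, and each direction that involves it rests on that label. The part of these differences between groups in the results below was not tested, and in bulk RNA fewer cells of a type and less RNA per cell cannot be told apart.

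Among the ULK complex, ULK1 (chr12:131894651-131923167, plus strand, GENCODE release 29, GRCh38, as for all positions of genes below) varied most. Its counts were 2453, 2693 and 2599 in K562, 2252, 2228 and 2301 in K562+L, 4730, 5129 and 6483 in K562/IM, and 9744, 8998 and 11038 in the labelled K562/IM+L libraries. As CPM these were 30.1, 32.1 and 33.4, then 26.0, 25.7 and 22.0, then 56.6, 53.4 and 60.4, and last 123, 126 and 117. No library of one group reached the level of another, and the order ran K562+L, K562, K562/IM, labelled K562/IM+L, with each neighbouring pair apart by edgeR's quasi-likelihood test. Group means were 24.6 ± 2.21, 31.9 ± 1.67, 56.8 ± 3.49 and 122 ± 4.37 CPM in that order (SD, n = 3 each).

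ULK2, the close paralog of ULK1, had no read in 10 of 12 libraries. One K562+L library had 4 counts and one labelled K562/IM+L library had 1, a total of 5 in the series. A count of 0 here allows a level of up to 0.0279 to 0.0386 CPM in these 10 libraries, taken as 3 counts and covering counting error only. ULK2 lies at chr17:19770829-19867936 on the minus strand. Within 500000 bases of it, EPN2 had 1230 to 2457 counts, B9D1 607 to 1098, MAPK7 465 to 737, AKAP10 1167 to 2045 and SPECC1 2397 to 14171 over the 12 libraries. Between MAPK7 and AKAP10, the 6 other genes in the table, MFAP4, RNF112, SLC47A1, ALDH3A2, SLC47A2 and ALDH3A1, had between 0 and 17 counts in any library. ULK2 thus sat in a run of genes with few or no reads, flanked on both sides by genes with many. The cause was not tested.

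ATG13 (chr11:46617527-46674818, plus strand), the subunit through which ULK1 binds RB1CC1, had similar levels in 3 groups and a higher one in the fourth. Its levels were 78.6, 71.4 and 88.6 CPM in K562, 78.9, 84.0 and 85.3 in K562+L, 76.2, 77.6 and 92.0 in K562/IM, and 149, 148 and 148 in labelled K562/IM+L. The first 3 groups overlapped one another and the last stood above all of them. ATG101 (chr12:52069246-52077494, plus strand), which stabilises ATG13, was lower in K562/IM and labelled K562/IM+L. It measured 26.7, 33.2 and 35.9 CPM in K562 and 37.3, 38.9 and 31.98 in K562+L, against 21.9, 24.5 and 23.5 in K562/IM and 23.2, 23.5 and 17.5 in labelled K562/IM+L. K562/IM and labelled K562/IM+L lay below every K562 and K562+L library and overlapped each other.

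RB1CC1 (chr8:52622456-52745843, minus strand), the scaffold of the complex, had the widest spread between replicates. It measured 111, 83.9 and 70.9 CPM in K562, 108, 109 and 135 in K562+L, 126, 127 and 128 in K562/IM, and 117, 105 and 150 in labelled K562/IM+L. The SD was 20.3 CPM in K562 and 23.0 in labelled K562/IM+L, against 1.03 in K562/IM. No neighbouring pair of groups in the order of its means was apart. In most libraries these deviations moved with those of other long transcripts. Over 1148 genes whose longest transcript has at least 8000 bases, the median log2 deviation from the group mean was 0.18, -0.02 and -0.16 in K562 replicates 1, 2 and 3, where RB1CC1 deviated by 0.34, -0.05 and -0.29. In labelled K562/IM+L the long genes deviated by -0.08, -0.15 and 0.22 and RB1CC1 by -0.07, -0.22 and 0.28. In K562+L the long genes deviated by 0.004, -0.10 and 0.10 and RB1CC1 by -0.11, -0.09 and 0.21, so that replicate 1 did not follow the axis. K562/IM libraries deviated little in either. RB1CC1 itself has a longest transcript of 6635 bases and is not in that set, while PIK3C3, at 9443 bases, is in it. A fit with this axis as a covariate is given below. Because the axis is a deviation from each group's own mean, that fit mainly narrows the spread within groups. The axis was also taken from these same counts, so a call gained with it is not separate support for a difference. In K562+L against K562 the RB1CC1 log2 fold change was 0.40 (SE 0.17) without the covariate and 0.42 (SE 0.067) with it. The part of the axis in differences between groups cannot be measured this way and was not tested.

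**Figure D1:**
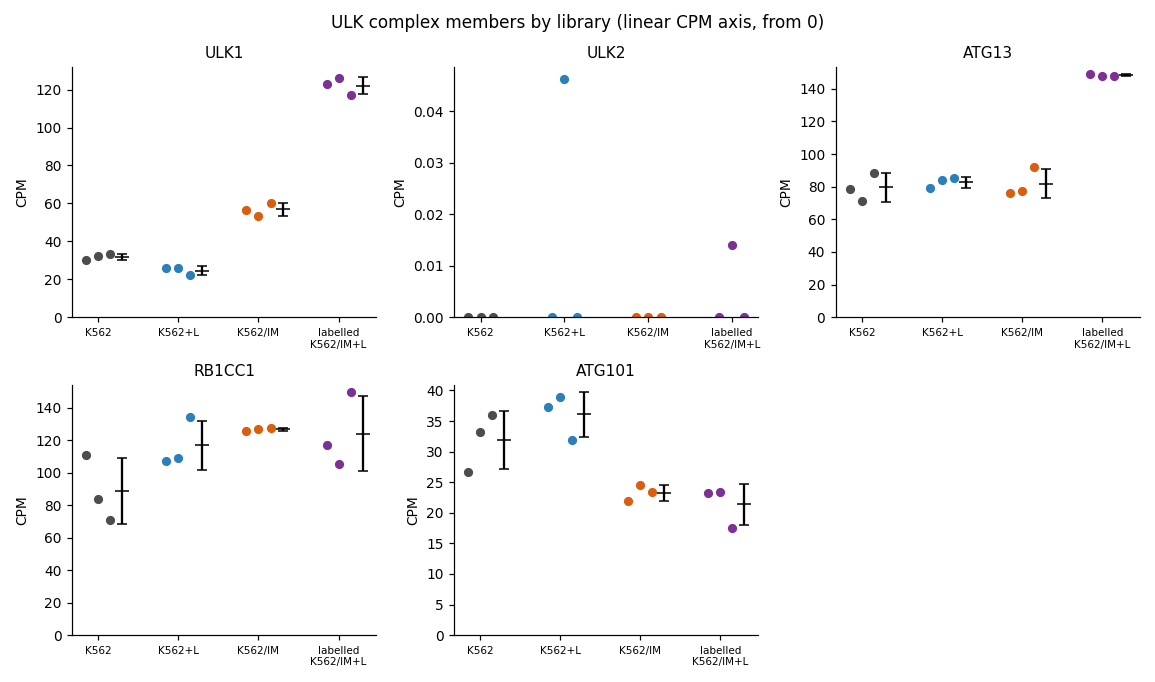
Each panel plots 1 gene of the ULK complex, with 1 point per library in CPM (linear axis from 0) for the 4 groups, and the bar beside the points giving the group mean and SD (n = 3, not drawn for ULK2). ULK1 rises from 22.0 CPM in the lowest K562+L library to 126 in the highest labelled K562/IM+L library, and ULK2 has 10 of 12 points at 0.

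**Figure D2:**
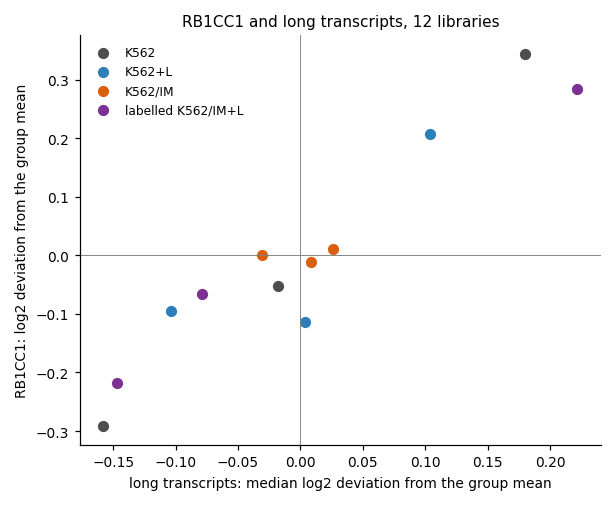
For each of the 12 libraries, coloured by group, the median log2 deviation of 1148 long transcripts from their group means is on the x axis and the log2 deviation of RB1CC1 from its group mean is on the y axis. K562 replicate 1 (0.18, 0.34) and labelled K562/IM+L replicate 3 (0.22, 0.28) lie at the upper right and the K562/IM libraries lie near 0.

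In the lipid kinase complex, the catalytic subunit PIK3C3 (chr18:41955206-42087830, plus strand) had 50.7, 49.9 and 47.2 CPM in K562, 61.2, 61.7 and 65.0 in K562+L, 62.2, 58.4 and 60.3 in K562/IM, and 47.0, 44.8 and 50.1 in labelled K562/IM+L. K562+L and K562/IM lay above every library of the other 2 groups and overlapped each other. PIK3R4 (chr3:130678935-130746829, minus strand), the partner that anchors PIK3C3 to membranes, measured 46.5, 41.9 and 40.6 CPM in K562, 52.8, 47.4 and 54.6 in K562+L, 43.8, 45.1 and 45.6 in K562/IM, and 22.6, 21.4 and 26.8 in labelled K562/IM+L. All labelled K562/IM+L libraries were below the other 9.

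BECN1, the subunit that BCL2 family proteins can bind, had 61.9, 59.7 and 64.8 CPM in K562, 42.5, 47.2 and 48.7 in K562+L, 77.1, 73.4 and 77.7 in K562/IM, and 58.1, 53.4 and 54.4 in labelled K562/IM+L. No group overlapped another in CPM. The order of means was K562+L, labelled K562/IM+L, K562, K562/IM. By edgeR's quasi-likelihood test, adjusted by Benjamini-Hochberg, the first 3 were not apart from their neighbour (adjusted p = 0.051 and 0.0842). K562/IM was apart from K562 (adjusted p = 0.0084). K562+L and labelled K562/IM+L were apart under 9 of 15 alternatives.

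BECN1 lies at chr17:42810134-42833350 on the minus strand. Its exons share 300 bases with those of PSME3 and 795 with those of CNTD1, both on the opposite strand. Counting by strand is not described in the sources used here, so that reads from the shared bases cannot be told apart. PSME3, a proteasome activator subunit, averaged 424, 451, 272 and 136 CPM in K562, K562+L, K562/IM and labelled K562/IM+L. PSME3 fell from K562 to K562/IM (log2 fold change -0.64), where BECN1 was higher, and from K562/IM to labelled K562/IM+L (-0.98), where BECN1 was also lower. In K562+L against K562, where BECN1 was lower, PSME3 did not pass (0.09). CNTD1 had 3 to 484 counts per library. ATG13 shares 329 bases in the same way with HARBI1, whose group means lay between 4.47 and 9.31 CPM. HARBI1 was higher by a log2 fold change of 0.94 in labelled K562/IM+L than in K562/IM, where ATG13 was also higher. It was higher by 0.85 in K562+L than in K562, where ATG13 did not pass. Antisense RNAs that share 614 exonic bases with ATG101, and 240 and 138 with UVRAG, have no row of their own here.

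ATG14 and UVRAG, the alternative partners of BECN1, differed in how they varied. ATG14 (chr14:55366392-55411858, minus strand) had 16.9, 16.2 and 13.6 CPM in K562, 15.9, 14.95 and 16.4 in K562+L, 16.3, 16.8 and 15.3 in K562/IM, and 33.3, 32.8 and 32.9 in labelled K562/IM+L. The 9 libraries of the other groups overlapped and the last 3 stood apart, with an SD of 0.242 CPM among themselves. UVRAG (chr11:75815167-76143195, plus strand), which directs PIK3C3 to endosomes, measured 45.8, 46.6 and 39.4 CPM in K562, 45.3, 47.7 and 48.4 in K562+L, 46.4, 47.2 and 47.5 in K562/IM, and 54.1, 54.9 and 57.1 in labelled K562/IM+L. Its highest and lowest group means were the closest of the 9 tested, and no neighbouring pair in the order of its means was apart. K562+L and labelled K562/IM+L came nearest, at an adjusted p of 0.0514 by edgeR's quasi-likelihood test.

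**Figure D3:**
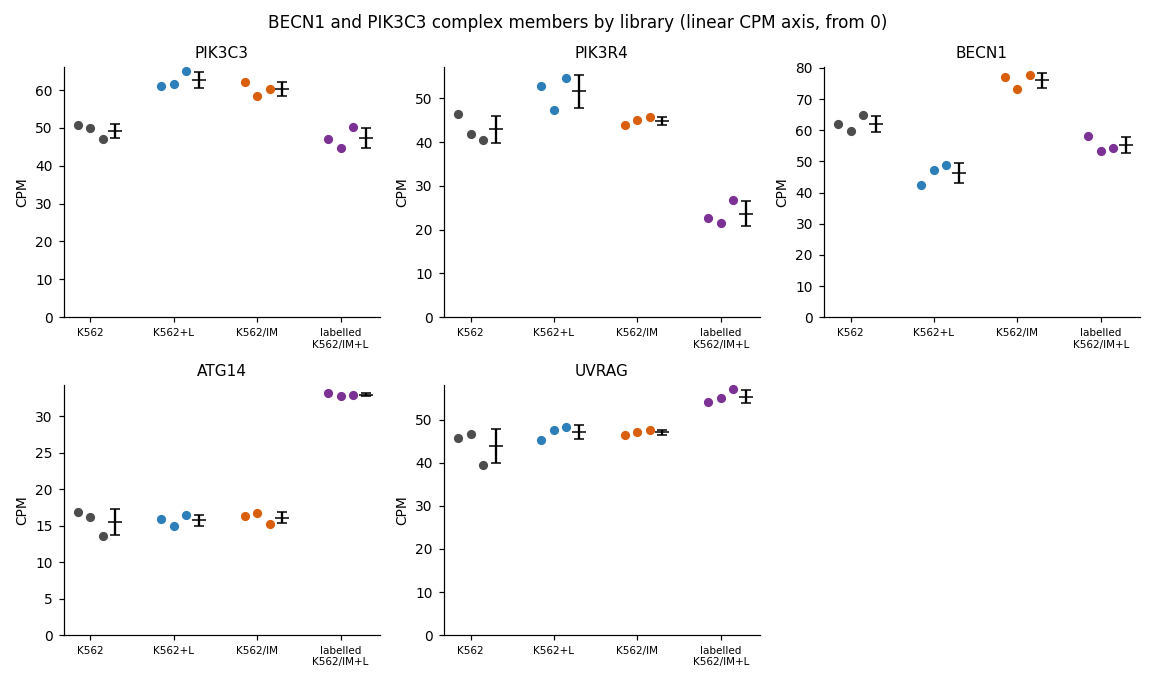
Panels plot the 5 genes of the BECN1 and PIK3C3 complexes, 1 point per library in CPM (linear axis from 0) for the 4 groups, with the group mean and SD beside the points (n = 3). PIK3R4 lies at 21.4 to 26.8 CPM and ATG14 at 32.8 to 33.3 CPM in the labelled K562/IM+L libraries, away from the other 9 points in opposite directions.

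Levels of different genes can be set beside each other only per length. In CPM per kb of the union of annotated exons, K562 means were 11.6 for RB1CC1, 11.4 for ATG13, 9.98 for ATG101, 9.69 for BECN1, 7.99 for PIK3R4, 6.92 for UVRAG, 4.19 for ULK1, 3.24 for PIK3C3 and 3.08 for ATG14. On this scale ULK1 was at 3.23 in K562+L, 7.47 in K562/IM and 16.0 in labelled K562/IM+L. In K562 it lay below ATG13, RB1CC1 and ATG101, and in labelled K562/IM+L it was close to RB1CC1 at 16.3 and below ATG13 at 21.2. Per kb of the longest transcript, ATG101 came first in K562 at 22.2 and ATG13 next at 18.3, so that the ranks depend on which transcripts are made.

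The first comparison asked what lycorine did in the parental line. In K562+L against K562, PIK3C3 was higher, ULK1 and BECN1 were lower, and the other 6 genes tested did not pass. The log2 fold change was 0.35 ± 0.081 (SE) for PIK3C3, -0.38 ± 0.10 for ULK1 and -0.43 ± 0.089 for BECN1, with adjusted p = 0.013, 0.0215 and 0.00843 by edgeR's quasi-likelihood test, adjusted by Benjamini-Hochberg over 12927 genes. These were 3 of 9 genes, against 37.3% of all genes tested (18.2% higher and 19.0% lower). None passed an absolute log2 fold change of 1, which 6.39% of all genes did. Groups did not overlap for 4 of the 9, PIK3R4 being the fourth, against 51.5% of all genes. The median log2 fold change was 0.10 over the 9 and -0.0001 over all genes, and the median absolute value 0.26 against 0.34. Log2 fold changes of 0.26 for PIK3R4 (adjusted p = 0.0646), 0.40 for RB1CC1 (0.0978), 0.18 for ATG101 (0.324), 0.10 for UVRAG (0.435), 0.06 for ATG13 (0.684) and 0.02 for ATG14 (0.908) did not pass.

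BECN1 was called under every alternative run in this comparison. ULK1 and PIK3C3 lost their call without K562 replicate 2 (adjusted p = 0.077 and 0.0588) and without K562+L replicate 3 (0.0817 and 0.0555), and ULK1 also without K562 replicate 3 (0.0551). RB1CC1 was called without K562 replicate 1 (log2 fold change 0.59, adjusted p = 0.00825) and with the long-transcript covariate (0.42, adjusted p = 0.00142). PIK3R4 was called without K562 replicate 1 (0.31, adjusted p = 0.0342) and with DESeq2 (0.0475). It was also called in 1 fit of all 12 libraries (0.0414) and with the long-transcript covariate (0.00525).

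Resistance was addressed by K562/IM against K562. ULK1, RB1CC1, BECN1 and PIK3C3 were higher in K562/IM and ATG101 was lower. ULK1 rose by a log2 fold change of 0.83 ± 0.081, RB1CC1 by 0.52 ± 0.15, BECN1 by 0.29 ± 0.070 and PIK3C3 by 0.29 ± 0.070, with adjusted p = 0.000111, 0.019, 0.0084 and 0.00869 by edgeR's quasi-likelihood test. ATG101 changed by -0.46 ± 0.12 (adjusted p = 0.0127). Thus 5 of 9 were called, against 57.1% of the 13406 genes tested (30.1% higher and 27.1% lower), and the groups did not overlap for those 5, against 66.6% of all genes. No member passed the fold threshold, which 19.1% of genes did. Median log2 fold change was 0.10 over the 9 and 0.04 over all genes, and the median absolute value 0.29 against 0.45. ATG13, ATG14, PIK3R4 and UVRAG had log2 fold changes of 0.04 to 0.10 and did not pass. RB1CC1 lost its call without K562 replicate 2 (adjusted p = 0.0675) and without K562/IM replicate 1, 2 or 3 (0.0508 to 0.0578), and ATG101 without K562/IM replicate 1 (0.055).

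In the comparison labelled as lycorine in the resistant line, 7 of 9 genes were called, against 66.8% of the 13727 tested (33.2% higher and 33.6% lower). ULK1, ATG14, ATG13 and UVRAG were higher in labelled K562/IM+L than in K562/IM, and PIK3R4, BECN1 and PIK3C3 were lower. Log2 fold changes were 1.13 ± 0.073 for ULK1, 1.06 ± 0.074 for ATG14, 0.88 ± 0.089 for ATG13 and 0.26 ± 0.063 for UVRAG, with adjusted p = 1.16e-05, 1.61e-05, 1e-04 and 0.00817 by edgeR's quasi-likelihood test. PIK3R4 fell by 0.90 on the log2 scale (SE 0.10), BECN1 by 0.44 (SE 0.067) and PIK3C3 by 0.33 (SE 0.073), with adjusted p = 0.000161, 0.000848 and 0.00542. RB1CC1 (-0.01) and ATG101 (-0.10) did not pass. Both ULK1 and ATG14 passed the fold threshold, 2 of 9 against 28.5% of all genes. No overlap was seen for the 7 called genes, against 73.4% of all genes. The median absolute log2 fold change was 0.44, against 0.61 over all genes. All 7 calls held under each alternative run, and RB1CC1 was called without labelled K562/IM+L replicate 3 (-0.16, adjusted p = 0.0358).

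Against K562, which supplies the same libraries as controls to 3 of the comparisons, labelled K562/IM+L had 6 of 9 genes called, 4 higher and 2 lower. Of the 13307 genes tested, 56.0% were called (28.2% higher and 27.8% lower). ULK1 was higher by a log2 fold change of 1.91 ± 0.086, ATG14 by 1.06 ± 0.11, ATG13 by 0.88 ± 0.10 and UVRAG by 0.31 ± 0.092, with adjusted p = 9.24e-06, 0.000202, 0.00033 and 0.0234 by edgeR's quasi-likelihood test. PIK3R4 was at -0.89 ± 0.11 and ATG101 at -0.60 ± 0.16 (adjusted p = 0.000527 and 0.0177). BECN1 (-0.19, adjusted p = 0.0842) did not pass, except with the long-transcript covariate (0.019). PIK3C3 (-0.08, 0.423) did not pass, nor did RB1CC1 (0.46, 0.0751), which was called without K562 replicate 1 (0.66, 0.0164), with DESeq2 (0.0306) and with the long-transcript covariate (0.48, 0.000313). ULK1 and ATG14 passed the fold threshold, against 23.8% of all genes, and 7 of 9 genes did not overlap between the groups, against 63.6%. The median absolute log2 fold change was 0.60 over the 9 and 0.56 over all genes. UVRAG lost its call without K562 replicate 2 or 3 and without labelled K562/IM+L replicate 1 or 2 (adjusted p = 0.0502 to 0.0732). ATG101 lost it without K562 replicate 2 (0.0572) and with upper-quartile scaling (0.0509), which moved the median of all genes to 0.17 on the log2 scale.

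**Figure D4:**
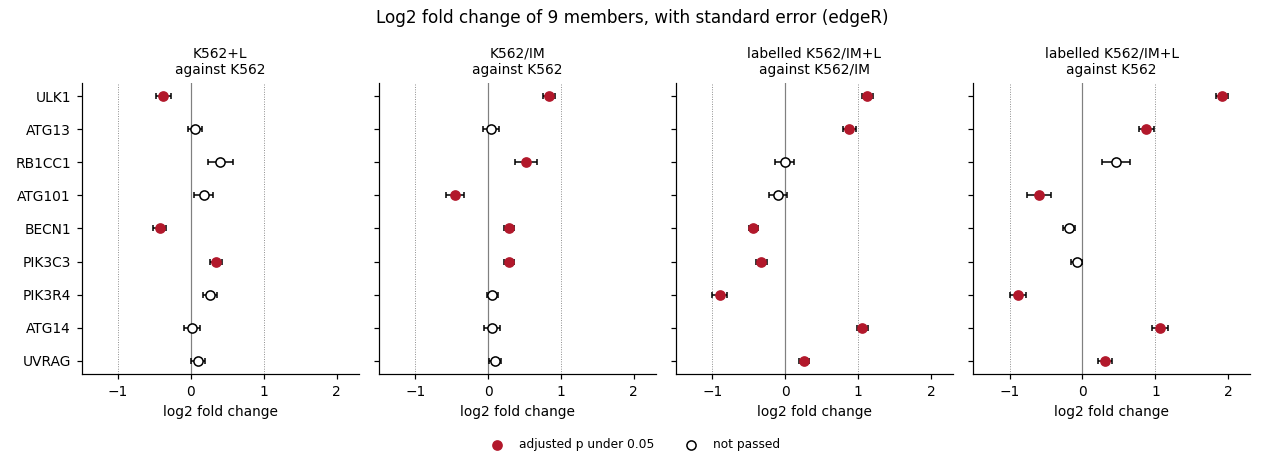
Log2 fold changes (x axis) of the 9 tested genes (y axis) are drawn with their SE in 4 comparisons, filled where the adjusted p of edgeR's quasi-likelihood test is under 0.05, with dotted lines at a log2 fold change of 1 in either direction. ULK1 lies at -0.38, 0.83, 1.13 and 1.91 from left to right, and PIK3R4 at 0.26, 0.06, -0.90 and -0.89.

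An interaction term in a fit of the 12 libraries asked whether the labelled lycorine effect differed between the lines, as the effect in K562/IM minus the effect in K562. It passed for 5 of 9 genes, against 61.7% of the 13995 tested (29.9% higher and 31.7% lower). A difference over 1 on the log2 scale was found for 3 of the 9, against 33.7% of all genes. ULK1, lower with lycorine in K562 and higher in labelled K562/IM+L than in K562/IM, differed by 1.48 ± 0.12 on the log2 scale (adjusted p = 7.43e-07 by edgeR's quasi-likelihood test). PIK3C3 had the reverse pattern, with a difference of -0.70 ± 0.093 (adjusted p = 5.45e-05). PIK3R4 differed by -1.19 ± 0.13, ATG14 by 1.02 ± 0.13 and ATG13 by 0.80 ± 0.13. BECN1 was lower by 0.43 in K562+L than in K562, and by 0.44 in labelled K562/IM+L than in K562/IM. The difference of -0.03 ± 0.10 did not pass (adjusted p = 0.816). UVRAG (0.13), RB1CC1 (-0.43) and ATG101 (-0.30) did not pass either. RB1CC1 passed without K562 replicate 1 (-0.62, adjusted p = 0.0171) and without labelled K562/IM+L replicate 3 (-0.59, adjusted p = 0.0329). With the long-transcript covariate both RB1CC1 (-0.46, adjusted p = 0.000421) and ATG101 (-0.32, adjusted p = 0.00391) passed. Their SE was 0.083 and 0.079 with it, against 0.23 and 0.19 without it.

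To complete the order of the groups, K562/IM and labelled K562/IM+L were also set against K562+L. In K562/IM, 4 of 9 genes were called, against 66.9% of the 13426 tested (34.7% higher and 32.2% lower). ULK1 (log2 fold change 1.22) and BECN1 (0.73) were higher, and ATG101 (-0.63) and PIK3R4 (-0.19) were lower than in K562+L, with PIK3R4 at an adjusted p of 0.0388 by edgeR's quasi-likelihood test and up to 0.211 under the alternatives. The groups did not overlap for these 4, against 72.2% of all genes. In labelled K562/IM+L, 6 of 9 were called, against 67.2% of the 13357 tested (34.1% higher and 33.1% lower). ULK1 (2.28), ATG14 (1.03) and ATG13 (0.81) were higher, and PIK3R4 (-1.16), ATG101 (-0.79) and PIK3C3 (-0.44) were lower. All tested genes but RB1CC1 had groups without overlap, 8 of 9 against 72.4% of all genes. BECN1 (0.22, adjusted p = 0.051) and UVRAG (0.20, adjusted p = 0.0514) did not pass in the main fit. They passed under 9 and 8 of 15 alternatives, DESeq2 among them.

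Pairs of members were also set against each other within a library, as ratios of their counts, which no scaling between libraries can change. These ratios were chosen after the values were seen. With 3 libraries a group an exact permutation test cannot give a p under 0.1, and over the 16 two-sided tests run the lowest p adjusted by Benjamini-Hochberg was 0.145. ATG14 to UVRAG was 0.344 to 0.369 in K562, 0.314 to 0.351 in K562+L and 0.321 to 0.355 in K562/IM, and 0.576 to 0.615 in labelled K562/IM+L, 1.74 times K562/IM. PIK3R4 to PIK3C3 was 0.840 to 0.916, 0.768 to 0.863, 0.704 to 0.772 and 0.479 to 0.535 in the same order. For this ratio K562+L overlapped both K562 and K562/IM, and labelled K562/IM+L lay below every other library.

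BECN1 to PIK3C3 was lowest in K562+L, at 0.695 to 0.766, against 1.20 to 1.37 in K562, 1.24 to 1.29 in K562/IM and 1.09 to 1.24 in labelled K562/IM+L. K562 and K562/IM had nearly equal means for it, 1.26 each, since both genes were higher in K562/IM by the same log2 amount. ULK1 to ATG13 was 0.377 to 0.450 in K562, 0.258 to 0.329 in K562+L, 0.656 to 0.744 in K562/IM and 0.793 to 0.852 in labelled K562/IM+L, with no overlap between any of the groups.

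**Figure D5:**
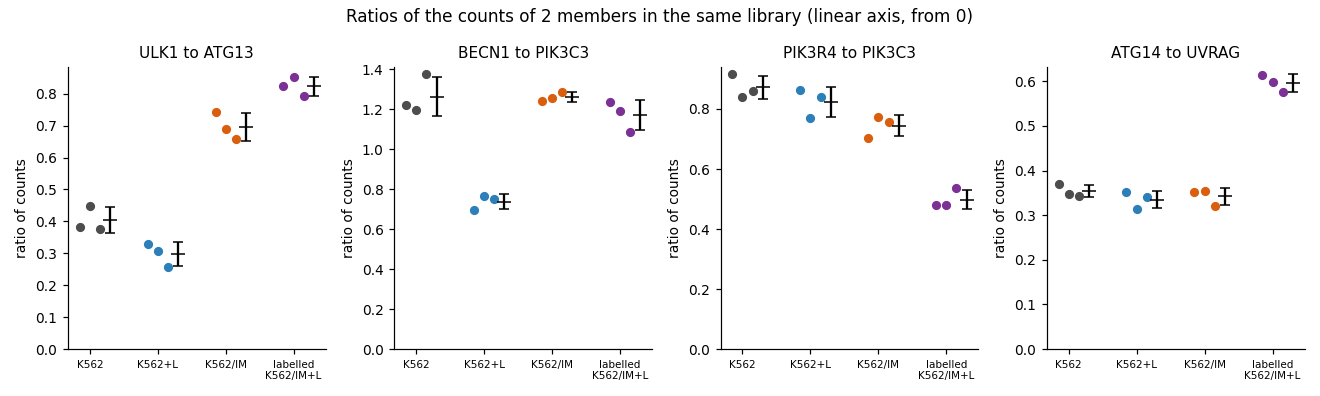
Each panel plots the ratio of the counts of 2 members in the same library (linear axis from 0), 1 point per library, with the group mean and SD beside the points (n = 3). BECN1 to PIK3C3 is 0.695 to 0.766 in K562+L, under all 9 other libraries, and ATG14 to UVRAG is 0.576 to 0.615 in labelled K562/IM+L, above all 9 others.

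The 3 members highest in labelled K562/IM+L by log2 fold change against K562/IM, ULK1, ATG14 and ATG13, are shown by the bases before their start. Promoter sequences from RefSeq (GRCh38.p14) were at hand for 8 of the 10 genes, not for RB1CC1 or UVRAG. The motif CACGTG, the core recognised by TFEB, TFE3 and MITF, was searched on both strands of the windows of 250 bases before and 50 after the start. It was found in 1 of the 8, ATG14, with its first base at position -21, and in 7.26% of all 35116 promoters. The forkhead core GTAAACA was found in none of the 8 and in 3.42% of all promoters. A match is only a match of letters. By the GENCODE positions above, ATG14 and ATG13 begin inside these windows, and the ATG14 match then lies within the gene. Below are the 250 bases before each RefSeq start, 5′ to 3′ on the strand of the gene, with CACGTG in capitals where it occurs.
ATG14, chr14:55411831-55412080, minus strand: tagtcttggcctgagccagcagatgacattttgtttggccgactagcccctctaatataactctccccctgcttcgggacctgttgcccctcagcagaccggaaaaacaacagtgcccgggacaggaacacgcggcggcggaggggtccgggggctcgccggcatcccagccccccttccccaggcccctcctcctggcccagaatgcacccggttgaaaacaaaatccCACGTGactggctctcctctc
ULK1, chr12:131894372-131894621, plus strand: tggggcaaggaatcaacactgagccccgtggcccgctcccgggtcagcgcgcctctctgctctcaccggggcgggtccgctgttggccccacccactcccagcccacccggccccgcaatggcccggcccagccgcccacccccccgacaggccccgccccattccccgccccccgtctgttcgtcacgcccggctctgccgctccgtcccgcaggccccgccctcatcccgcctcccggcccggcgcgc
ATG13, chr11:46617303-46617552, plus strand: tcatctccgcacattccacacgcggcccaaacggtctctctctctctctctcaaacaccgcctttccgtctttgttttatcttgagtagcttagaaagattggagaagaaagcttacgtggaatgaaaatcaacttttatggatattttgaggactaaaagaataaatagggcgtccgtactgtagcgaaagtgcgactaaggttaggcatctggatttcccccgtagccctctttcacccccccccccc
GC content of these 250 bases was 62.0% in ATG14, 78.0% in ULK1 and 47.2% in ATG13.

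Genes around the complexes were counted in 5 lists, to be read against the shares of all genes called: 37.3% in K562+L against K562, 57.1% in K562/IM against K562, 66.8% in labelled K562/IM+L against K562/IM and 56.0% against K562. Of the mTORC1, AMPK and TSC genes upstream of ULK1, 3 rose and 1 fell of 13 tested in K562+L against K562, 3 rose and 4 fell of 13 in K562/IM against K562, 6 rose and 4 fell of 14 in labelled K562/IM+L against K562/IM, and 5 rose and 2 fell of 14 against K562. STK11 (LKB1), the kinase that activates AMPK, had 67.4 to 74.7 CPM in K562/IM and 150 to 193 in labelled K562/IM+L, a log2 fold change of 1.36 (adjusted p = 2.91e-05 by edgeR's quasi-likelihood test). DEPTOR, an inhibitor subunit of mTOR complexes, had 5, 9 and 0 counts in K562/IM and 138, 139 and 151 in labelled K562/IM+L. Several of these counts lie near those shares. Of the 3 other ULK family kinases, none passed in K562+L, 2 rose in K562/IM, and 2 fell in labelled K562/IM+L against K562/IM, near the 66.8% of all genes called there. In that comparison ULK4 went from 5.08 to 6.37 CPM to 2.18 to 2.86.

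Among 17 partners and regulators of BECN1 and PIK3C3, 5 rose and 2 fell of 15 tested in K562+L, 9 rose and 3 fell of 16 in K562/IM against K562, 3 rose and 11 fell of 17 in labelled K562/IM+L against K562/IM, and 4 rose and 7 fell of 17 against K562. Over all genes 18.2% rose and 19.0% fell in the first of these comparisons, 30.1% and 27.1% in the next, then 33.2% and 33.6%, and 28.2% and 27.8% in the last. BCL2, the anti-apoptotic protein that binds BECN1, had 5.79 to 7.83 CPM in K562 and 0.416 to 0.659 in K562/IM (log2 fold change -3.58, adjusted p = 1.59e-05 by edgeR's quasi-likelihood test), and 1.84 to 2.95 in labelled K562/IM+L. BCL2L1 (BCL-xL), which binds the same region of BECN1, went the other way, with 109 to 125 CPM in K562, 237 to 239 in K562/IM and 68.7 to 79.5 in labelled K562/IM+L. Log2 fold changes of BCL2L1 were 1.02 in K562/IM against K562 and -1.65 in labelled K562/IM+L against K562/IM.

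VMP1, an endoplasmic reticulum protein needed for autophagosome formation, had 107.4 to 112 CPM in K562, 76.3 to 89.0 in K562+L, 173 to 182 in K562/IM and 73.9 to 79.1 in labelled K562/IM+L. It was thus highest in the group in which BECN1 was highest. DAPK1, a kinase that phosphorylates BECN1, fell by 1.06 on the log2 scale in labelled K562/IM+L against K562/IM (SE 0.12), from 35.4 to 38.6 CPM to 16.1 to 20.5. Its relative DAPK2 had 123 to 196 counts in K562/IM and at most 25 in any other library. TAB2, an adaptor that binds BECN1, rose by 1.21 in K562/IM against K562, from 31.0 to 42.1 CPM to 85.7 to 88.5.

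Of 11 genes for readers and phosphatases of the PIK3C3 lipid and for ATG9A, none rose and 3 fell in K562+L, 2 rose in K562/IM against K562, 8 rose and 1 fell in labelled K562/IM+L against K562/IM, and 6 rose and 1 fell against K562, beside the same shares of all genes. WIPI1, which binds that lipid, had 27.5 to 29.9 CPM in K562 and 8.42 to 9.68 in K562+L, a log2 fold change of -1.65 ± 0.098 (adjusted p = 7.07e-05 by edgeR's quasi-likelihood test), and 28.0 to 30.6 in K562/IM. ZFYVE1 (DFCP1), which marks sites of autophagosome formation, stood at 7.58 to 8.76 CPM in K562, 13.0 to 14.3 in K562/IM and 21.1 to 21.4 in labelled K562/IM+L. Of 6 transcription factors of autophagy genes, 2 rose in K562+L, 1 rose in K562/IM, and 2 rose and 2 fell in labelled K562/IM+L against either line. Over all genes 37.3%, 57.1%, 66.8% and 56.0% were called in these comparisons. FOXO3 was at 27.6 to 37.7 CPM in K562 and 75.2 to 87.2 in K562+L, a log2 fold change of 1.29 (adjusted p = 0.000492), and TFEB fell by 1.19 in labelled K562/IM+L against K562/IM (adjusted p = 0.000628).

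The genes whose pattern over the 12 libraries was most like that of a member were ranked, among 13995 genes, by the root mean square difference of log2 CPM after centring each gene on its own mean. For ULK1 they included CERS4, a ceramide synthase, and HOMEZ, at 0.100 and 0.117. HOMEZ averaged 9.87, 6.85, 14.8 and 34.0 CPM in K562, K562+L, K562/IM and labelled K562/IM+L. For BECN1 they were B3GALNT2, ZNF77 and GDF11, at 0.0600, 0.0813 and 0.0825. B3GALNT2, a glycosyltransferase, averaged 48.8, 36.1, 55.6 and 42.7 CPM in the same order. The ranking is a description, since the libraries share their groups.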

How the data were processed

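mRNA of 12 libraries was analysed, 3 each of K562, K562+L, K562/IM and labelled K562/IM+L, grouped by their labels. The authors deposited whole-number counts per gene symbol, not normalized. Submitters' processing notes name FastQC, STAR, StringTie, DESeq2 and hg38, and versions, roles, annotation and use of strand are not given in the sources used here. Of 23289 counts from 1 to 25, 67.9% were a multiple of 4 or 1 above one, so counting noise may exceed what the totals give. Its origin was not tested.

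From these counts, each pair of groups was filtered with filterByExpr (minimum count 10), scaled by TMM and tested with edgeR 4.0.16 (glmQLFit and glmQLFTest, R 4.3.3) with Benjamini-Hochberg adjustment over all genes tested. Calls were made below an adjusted p of 0.05. The interaction used all 12 libraries. Members and lists were chosen with earlier results of these data known. Named beside the members were list genes called with an absolute log2 fold change over 1 in any pair of groups, at most 6 a list by smallest p, and the 3 nearest patterns of ULK1 and BECN1, of which 1 gene is not reported here. Steps were tested on simulated counts. Positions and lengths came from GENCODE 29 (19029 symbols matched). Alternatives were DESeq2 1.42.0, RLE and upper-quartile scaling, other filters, counts divided by 4, a replicate block, each library left out, 1 fit of all libraries and the longest transcript for length. The covariate of long transcripts, the count ratios and comparisons of K562/IM and labelled K562/IM+L with K562+L were added after the data were seen. Protein sequences were not used here.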

Additional observations from a re-analysis of the deposited data

Results flagged for a closer look

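For 5 genes the labelled lycorine effect differed between the lines by the interaction term of edgeR's quasi-likelihood test over 12 libraries. The effect in K562/IM minus that in K562 was 1.48 on the log2 scale for ULK1 (adjusted p = 7.43e-07), 1.02 for ATG14 (3.13e-05), 0.80 for ATG13 (0.00024), -0.70 for PIK3C3 (5.45e-05) and -1.19 for PIK3R4 (1.45e-05). ULK1 and PIK3C3 passed the pairwise test within each line in opposite directions, whereas ATG13 and ATG14 passed only in K562/IM. PIK3R4 passed in K562/IM, where it was lower with the label, and was higher by 0.26 in K562+L than in K562. That rise did not pass the pairwise test (adjusted p = 0.0646), but it passed in 1 fit of all 12 libraries (0.0414). The share of all genes that passed the interaction was 61.7%, and the term rests on the libraries labelled K562/IM+L. In these libraries the summed erythroid and K562 identity genes, mostly the globins HBG1 and HBZ, were also far above the other 9. The part of those genes in these differences was not tested.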

How the results depend on the processing

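In K562+L against K562 the number of members called was 3, and it was 5 with DESeq2, 6 with the covariate of long transcripts and 1 to 5 with each library left out (5 without K562 replicate 1, 1 without K562 replicate 2 and 1 without K562+L replicate 3). The genes called over the whole table ranged from 2871 to 7067 around 4821. In K562/IM against K562 it was 5, and 3 to 5 with a library left out (3 without K562/IM replicate 1). Labelled K562/IM+L gave 7 to 8 calls against K562/IM and 4 to 7 against K562 with a library left out, and the interaction 5 to 6. With the covariate of long transcripts the last 2 gave 8 and 7. Calls gained with that covariate came with a smaller SE, since it was built from these counts as deviations within groups. The genes called over the whole table ranged from 6316 to 9296 in K562/IM against K562, 8101 to 10346 and 5700 to 9439 in labelled K562/IM+L against K562/IM and K562, and 7990 to 9610 in the interaction. With the replicate number as a block, the member calls were 1 in K562+L against K562, 5 in K562/IM against K562, 7 and 4 in labelled K562/IM+L against K562/IM and K562, and 5 in the interaction. Under the block ULK1 and PIK3C3 were not called in the first (adjusted p = 0.0752 and 0.07), nor ATG101 and UVRAG in labelled K562/IM+L against K562 (0.0585 and 0.0938). The numbers were not taken as pairing the samples, since same-numbered libraries did not deviate together in every pair (r from -0.397 to 0.0567 in K562+L against K562). Of 990 values of members under alternatives, none turned the direction of a call, 28 lost their call and 38 gained one. Upper-quartile scaling moved the median of all genes to 0.17 in labelled K562/IM+L against K562 and 0.11 in the interaction, where UVRAG was then called (0.26, adjusted p = 0.0357). Depth did not limit the 9 tested genes, each with at least 1054 counts per library, and it limits ULK2 to its upper bound.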
